A study of Mus musculus with 6 samples.

Results

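The transcripts of 9 chemokine ligand genes were followed in blood neutrophils of mice, isolated by flow cytometry and profiled by RNA sequencing. The genes were chosen by symbol, as ligands known to be made by neutrophils, with earlier results of these data known. They are Cxcl1, Cxcl2, Cxcl3, Cxcl16, Ccl3, Ccl4, Ccl5, Ccl6 and Ccl9. All 9 were found among the 47561 features that each library lists. The study had 6 samples: 3 controls, labelled negative control, and 3 taken after 30 days of AVP. AVP is not spelled out in the labels, whose genotype entries repeat control and AVP, and the sources used here name no strain, age, dose or route. The series title concerns IL36G release by neutrophils under AVP. Whether replicates are separate animals is not stated, so the p-values reflect only how much these samples varied, which could be technical.

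Chemokines are small secreted proteins that draw leukocytes along a gradient by engaging G protein-coupled receptors. The CXC and CC families are named for whether a residue separates the leading pair of cysteines. CXCL1, CXCL2 and CXCL3 act on CXCR2, the main chemokine receptor of neutrophils, so neutrophils that make them can recruit more neutrophils. CCL3 and CCL4, the macrophage inflammatory proteins, draw monocytes and lymphocytes, as does CCL5. CCL6 and CCL9 are rodent CC chemokines of myeloid cells that act on CCR1. CXCL16 is made as a membrane protein that binds CXCR6. The inflammatory members are classical targets of NF-kB, and their short-lived mRNAs are kept low in resting cells.

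The sequences before the start sites of the CXC genes are shown because they share a stretch of letters, and that of Ccl3, the most abundant inflammatory CC gene, for comparison. RefSeq promoters (GRCm38.p6, the assembly of the mm10 build) were matched by symbol for 6 of the 9 genes: Cxcl1, Cxcl2, Cxcl3, Ccl3, Ccl6 and Ccl9. The 250 bases before each start were searched on both strands. Capitals mark matches to the NF-kB motif; the matches on the 2 strands overlap.
Cxcl2 chr5:90903649-90903898 (+ strand): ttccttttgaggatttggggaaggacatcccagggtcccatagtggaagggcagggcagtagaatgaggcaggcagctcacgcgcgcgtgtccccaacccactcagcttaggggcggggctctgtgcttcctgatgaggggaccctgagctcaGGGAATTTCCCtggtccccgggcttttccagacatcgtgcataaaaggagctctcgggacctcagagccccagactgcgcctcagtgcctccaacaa
Cxcl3 chr5:90785851-90786100 (+ strand): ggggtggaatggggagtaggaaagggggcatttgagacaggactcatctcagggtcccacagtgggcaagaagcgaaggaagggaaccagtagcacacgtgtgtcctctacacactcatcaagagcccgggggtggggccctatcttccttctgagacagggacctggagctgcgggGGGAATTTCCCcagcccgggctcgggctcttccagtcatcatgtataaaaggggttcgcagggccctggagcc
Cxcl1 chr5:90890995-90891244 (+ strand): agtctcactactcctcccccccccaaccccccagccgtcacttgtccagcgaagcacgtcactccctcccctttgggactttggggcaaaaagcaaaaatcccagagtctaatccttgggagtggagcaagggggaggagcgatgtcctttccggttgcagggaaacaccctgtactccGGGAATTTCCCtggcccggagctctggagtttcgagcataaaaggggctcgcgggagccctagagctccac
Ccl3 chr11:83649379-83649628 (- strand): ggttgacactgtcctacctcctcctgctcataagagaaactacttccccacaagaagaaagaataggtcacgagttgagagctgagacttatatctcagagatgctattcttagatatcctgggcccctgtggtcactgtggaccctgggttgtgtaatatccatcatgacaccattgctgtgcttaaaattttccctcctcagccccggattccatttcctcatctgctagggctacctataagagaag
The letters GGGAATTTCC stood 97 bases before the start of Cxcl2, 73 bases before that of Cxcl3 and 71 bases before that of Cxcl1. These letters were read from the consensus match in the Cxcl2 window, so the match in Cxcl2 was certain. They were present in 0.0852% of all 32851 promoter windows of this length. The broader NF-kB consensus was present in 3.9% of windows. It was matched in these 3 genes and once in Ccl9, 35 bases before the start, and had no match in the windows of Ccl3 and Ccl6. The AP-1 letters TGANTCA were found in Ccl9 (6.75% of all windows hold them), and the C/EBP letters TTGCNNAA (9.56%) and the cAMP response letters TGACGTCA (1.55%) in none of the 6. The letters ATAAAA lay 57, 29 and 34 bases before the starts of Cxcl2, Cxcl3 and Cxcl1 (17% of all windows hold them). In Ccl9 they were matched 91 bases before the start and, on the opposite strand, 225 and 95 bases before it. Aligned end to end, the Cxcl2 window was identical to that of Cxcl3 at 56.1% of alignment columns and to that of Cxcl1 at 50.2%. Pairs of a CXC and a CC window ranged from 42.3% (Cxcl2 and Ccl6) to 48.9% (Cxcl1 and Ccl3), close to the 50.2%. A match is a description of these letters and not a measured binding site.

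The genes lie in a pair of clusters. Cxcl3 (90786101 to 90788093), Cxcl1 (90891245 to 90893121) and Cxcl2 (90903899 to 90905938) lie within 120 kb of chromosome 5 in GRCm38. Ccl5 (83525778 to 83530518), Ccl9 (83572917 to 83578636), Ccl6 (83587886 to 83593087), Ccl3 (83647843 to 83649378) and Ccl4 (83648624 to 83664683) lie within 139 kb of chromosome 11. Cxcl16 lies apart on chromosome 11 (70454389 to 70459984). All 9 are protein-coding.

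Values are taken to be FPKM, since the files name no unit. FPKM are fragments scaled by transcript length and library size, which allow levels of different genes to be set side by side. Depth was estimated at 14200000 to 16800000 fragments per library, at which 1 fragment on a transcript of 1 kb is worth 0.0594 to 0.0704 FPKM. The neutrophil markers S100a8 and S100a9 took 18.4% to 23.9% of all FPKM. All 9 neutrophil markers lay above 0 in every library, but so did every B cell marker, so this alone does not bear out the neutrophil label. RNA of other cells was also present, red cell RNA most of all. Red cell markers summed to 103000 to 155000 FPKM in controls and to 242600, 119300 and 135400 FPKM in AVP replicates 1 to 3, against 165000 to 194000 FPKM for neutrophil markers over all 6 libraries, so in AVP replicate 1 they exceeded the neutrophil sum (165400 FPKM). B cell markers summed to 4890 to 7740 FPKM in controls and 1260 to 4840 FPKM after AVP. The part of either in the ligand values was not tested. In bulk RNA, fewer cells of a type and less RNA per cell cannot be told apart. A value of 0 may be an estimate that failed, so such genes are said to be listed at 0; Gapdh, a glycolytic enzyme of every cell, was listed at only 5.72 to 13.7 FPKM.

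After AVP, transcripts of Cxcl2, Cxcl3, Ccl3 and Ccl4 stood higher in all 3 AVP libraries than in all 3 control libraries, while those of Ccl5, Ccl6 and Ccl9 overlapped between the groups. The plot of levels by library shows the separation for these 4 genes. Of the 9 genes, 7 had at least 1 FPKM in at least 3 libraries and were tested; Cxcl3 met this minimum through the AVP libraries alone, so it had to differ. Cxcl1 and Cxcl16 did not meet it. By limma with Benjamini-Hochberg adjustment over 8523 genes, 0 of the 7 passed an adjusted p of 0.05, and 0% of all genes passed in either direction. At an adjusted p under 0.1, 0.141% of all genes (12) were higher, Cxcl2 among them. At an unadjusted p under 0.05, Cxcl2, Ccl3 and Ccl4 were higher after AVP, as were 4.69% of all genes (400), and 3.78% (322) were lower. A separation with all AVP libraries on top was seen in 6.39% of all genes. A two-sided exact permutation test gave Cxcl2, Ccl3 and Ccl4 each a p of 0.1, the smallest that 3 libraries against 3 allow.

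**Figure D1:**
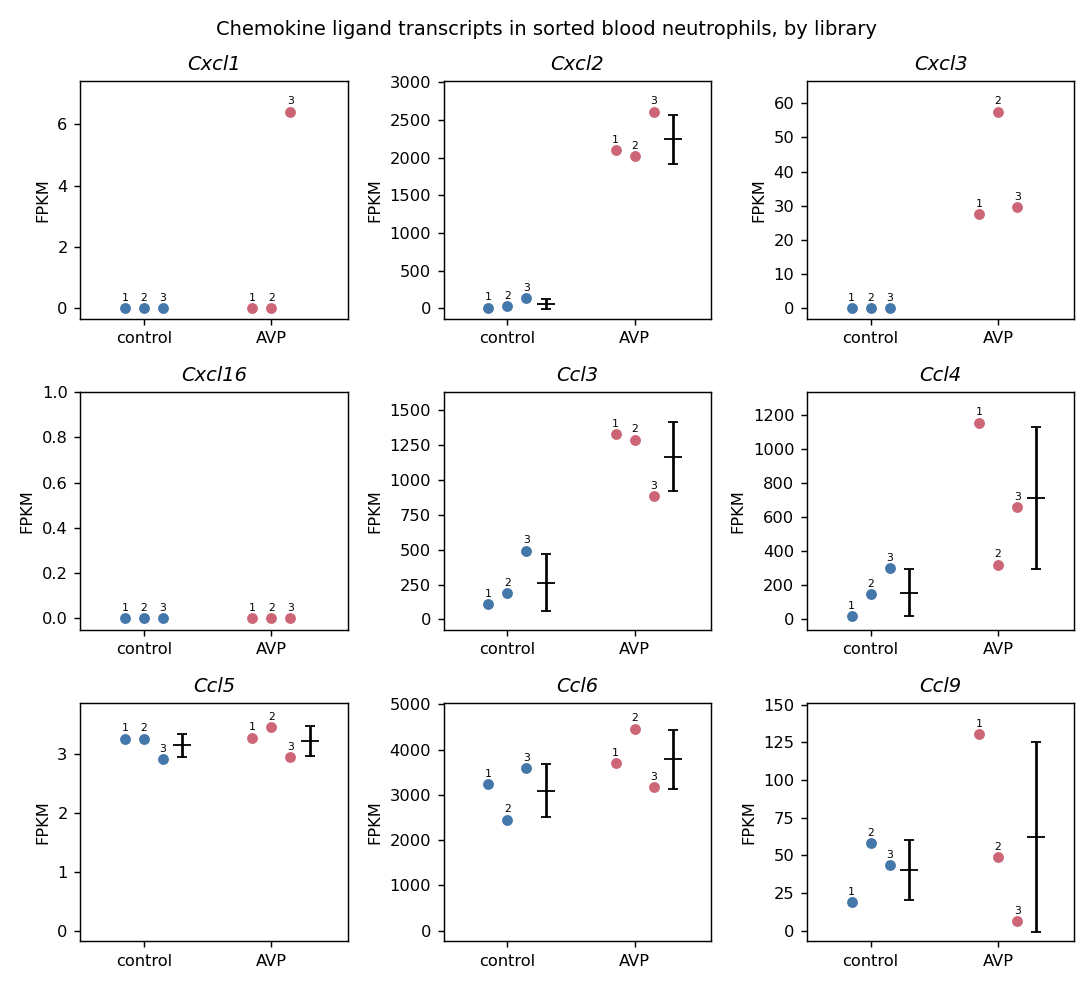
FPKM of each ligand gene (vertical axes, linear, each with its own scale) in the 3 control (blue) and 3 AVP (red) libraries, numbered by replicate; the black mark and bar give the group mean and SD, left out for genes listed at 0. Cxcl2 lies at 9.67 to 135 FPKM in controls and at 2019 to 2611 FPKM after AVP, and Cxcl3 is at 0 in every control.

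Cxcl2, the neutrophil attractant also known as MIP-2, showed the largest fitted difference of the 8523 genes tested. Its level was 9.67, 28.8 and 135 FPKM in control replicates 1 to 3 and 2098, 2019 and 2611 FPKM in AVP replicates 1 to 3. The AVP libraries lay close together, whereas the controls spanned a 14-fold range with replicate 3 on top. Even so, the lowest AVP library was 14.9-fold above the highest control. The means were 57.9 ± 67.8 and 2243 ± 321 FPKM (SD, n = 3), a 38.7-fold ratio. The fitted log2 difference was 6.07 (SE 0.78, 95% interval 4.27 to 7.86), with an adjusted p of 0.066 by limma, so it did not pass. Among all features above 0, Cxcl2 ranked between 514 and 3747 from the top in controls and between 29 and 35 after AVP. Without control replicate 3, its log2 difference was 7.04 and passed (adjusted p = 0.00599 by limma).

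Cxcl3, a close relative of Cxcl2 with the same receptor, was listed at 0 in all 3 control libraries. After AVP it stood at 27.5, 57.6 and 29.7 FPKM, far below Cxcl2 in the same libraries. No fold is given against a group at 0, and no p is read for a gene that met the minimum through 1 group alone. Of the 50-base words of Cxcl2 transcripts, 5.84% also occur in Cxcl3. Fragments from such words could be counted for either gene, so the Cxcl3 level is uncertain. Among the AVP libraries, Cxcl3 was highest in replicate 2, where Cxcl2 was lowest (2019 FPKM). Cxcl2 was highest in replicate 3 (2611 FPKM). The part of shared fragments was not tested.

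Cxcl1, known as KC and the third CXCR2 ligand of the cluster, was listed at 0 in 5 of the 6 libraries. It stood at 6.42 FPKM in AVP replicate 3, the library in which Cxcl2 was highest. The Cxcl1, Cxcl2 and Cxcl3 genes, which share the NF-kB letters shown above, stood at levels that ranged from 0 to 2611 FPKM in the AVP libraries. The neighbouring CXC genes Cxcl5 and Cxcl15 were listed at 0 in all 6 libraries.

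Ccl3, which encodes MIP-1 alpha, was already present in controls at 109, 188 and 493 FPKM and stood at 1327, 1287 and 884 FPKM after AVP. The groups did not overlap, and the lowest AVP library was 1.79-fold above the highest control. The means were 263 ± 203 and 1166 ± 245 FPKM (SD, n = 3), a 4.43-fold ratio. The log2 difference was 2.48 (SE 0.50, 95% interval 1.32 to 3.64), and its adjusted p was 0.19 by limma.

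Ccl4, the MIP-1 beta gene beside Ccl3, was at 21.7, 150 and 300.4 FPKM in controls, against 1154, 322 and 659 FPKM after AVP. The AVP libraries spread more widely than for Ccl3, and AVP replicate 2 was only 1.07-fold above control replicate 3. The means were 157 ± 140 and 712 ± 419 FPKM (SD, n = 3). The log2 difference was 2.71 (SE 0.91, 95% interval 0.61 to 4.81), with an adjusted p of 0.423 by limma, and was 1.625 without control replicate 1, in which Ccl4 was lowest. Ccl3 stood above Ccl4 in each of the 6 libraries, by a factor of 1.15 or more. The RefSeq span of Ccl4 overlaps that of Ccl3 on the opposite strand by 755 bases. In the GENCODE annotation of the same assembly their exons do not overlap, and the sources used here do not say whether counting used strand, so the split between the pair is uncertain.

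Basophil markers, whose sum was highest in AVP replicate 1, stand beside these 2 genes because basophils can make both ligands. The 7 markers summed to 317 FPKM in AVP replicate 1, 27.5 FPKM in control replicate 2 and 0 to 0.0212 FPKM elsewhere. Mcpt8 alone held 230 FPKM of the sum in AVP replicate 1. Fcer1a and Il4, named after their values were seen, were highest in control replicate 2 (9.07 and 14.02 FPKM). In AVP replicate 1 they were at 0 and 11.6 FPKM. The other markers were highest in AVP replicate 1. The basophil protease Mcpt8 was at 0 in AVP replicates 2 and 3. In these libraries Ccl3 was at 1287 and 884 FPKM (highest control 493 FPKM) and Ccl4 at 322 and 659 FPKM (highest control 300.4 FPKM). Without AVP replicate 1, the log2 difference was 2.32 for Ccl3 (unadjusted p = 0.00527 by limma). That of Ccl4 was 2.21, and its unadjusted p of 0.0635 by limma was no longer under 0.05. The part of basophil RNA in the Ccl3 and Ccl4 values was not tested.

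Ccl6 was the most abundant of the 9 transcripts in every library. It stood at 3231, 2453 and 3590 FPKM in controls and 3708, 4467 and 3176 FPKM after AVP. The groups overlapped, and AVP replicate 3 lay below control replicates 1 and 3. The means were 3092 ± 582 and 3784 ± 649 FPKM (SD, n = 3). The log2 difference was 0.38 (95% interval -0.09 to 0.84), with an adjusted p of 0.697 by limma. Ccl6 ranked between 18 and 28 from the top of all features in all 6 libraries.

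Ccl9, the neighbour of Ccl6 that acts on the same receptor, was far less abundant and spanned a 20.4-fold range within the AVP group. Its level was 18.9, 58.3 and 43.7 FPKM in controls and 131, 48.8 and 6.39 FPKM after AVP. AVP replicate 1 held the highest value and AVP replicate 3 the lowest of all 6 libraries. The log2 difference was 0.04 (95% interval -2.25 to 2.32, adjusted p = 0.992 by limma), and its sign turned with the library left out. The 10 monocyte markers summed to 224 FPKM in AVP replicate 3 and to 540 to 1170 FPKM in the other 5. The sum of basophil markers was highest in AVP replicate 1. None of the monocyte markers was at 0 throughout, and the part of monocyte RNA in the Ccl9 values was not tested.

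Ccl5, or RANTES, a chemokine best known from T cells, NK cells and platelets, was low and nearly the same in all 6 libraries. It was listed at 3.26, 3.26 and 2.91 FPKM in controls and 3.28, 3.45 and 2.95 FPKM after AVP. The log2 difference was 0.09 with a 95% interval of -1.19 to 1.37 (adjusted p = 0.973 by limma). T and NK cell markers summed to 172 FPKM in AVP replicate 3 and to 3.61 to 17.3 FPKM elsewhere, and their part in the Ccl5 values was not tested. The T cell receptor gene Trac was at 52.4 FPKM there and at 0 in the other 5, and Cd3e was at 0 in all 6.

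Cxcl16 was listed at 0 in all 6 libraries. In GENCODE, 18.3% of its exon bases overlap exons of Zmynd15 on the opposite strand, and Zmynd15 was listed at 1.51 FPKM in AVP replicate 2 and at 0 in the other 5. Whether the overlap bears on the listed 0 was not tested. Its receptor gene Cxcr6, named after its values were seen, was at 40.5 FPKM in AVP replicate 3 and at 0 to 0.135 FPKM elsewhere.

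**Figure D2:**
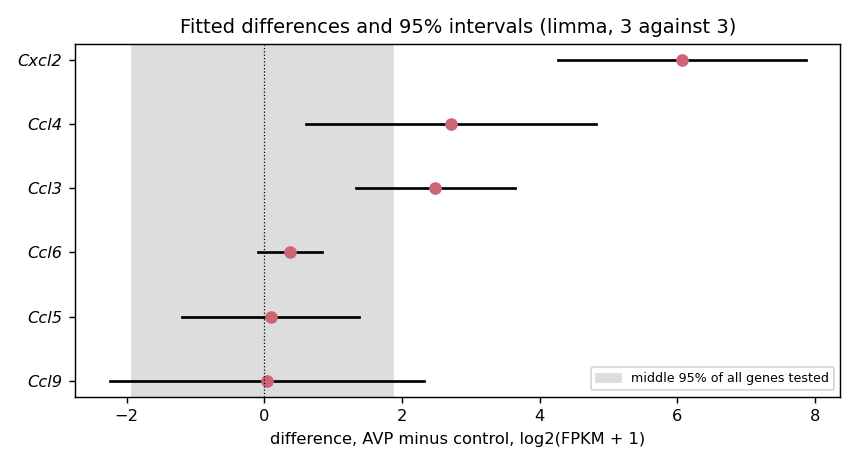
Fitted difference between AVP and control on the log2(FPKM + 1) scale (horizontal axis) with its 95% interval for the 6 tested ligand genes above 0 in every library; the grey band holds the middle 95% of all genes tested. Cxcl2 at 6.07, Ccl4 at 2.71 and Ccl3 at 2.48 lie beyond the band (-1.92 to 1.86), while Ccl6, Ccl5 and Ccl9 lie within it.

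The order of levels differed between the groups. In controls, Ccl6 stood far above the rest, followed by Ccl3, Ccl4, Cxcl2, Ccl9 and Ccl5 by mean. The ranges of the neighbours Ccl3 and Ccl4, Ccl4 and Cxcl2, and Cxcl2 and Ccl9 overlapped. After AVP the order was Ccl6, Cxcl2, Ccl3, Ccl4, Ccl9, Cxcl3 and Ccl5. Ccl6, Cxcl2 and Ccl3 did not overlap with each other, while Ccl3 overlapped with Ccl4, and Ccl9 with Cxcl3.

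As shares of the summed FPKM of the 9 genes, Ccl6 made up 95.2%, 85.1% and 78.6% in controls and 43.9%, 54.4% and 43.1% after AVP. Cxcl2 made up 0.285% to 2.97% in controls and 24.6% to 35.4% after AVP. The sum itself was 3393, 2882 and 4566 FPKM in controls and 8449, 8205 and 7375 FPKM after AVP, or 0.354% to 0.575% and 0.926% to 1.04% of all FPKM. Within a library, Cxcl2 was at 0.089 to 0.275 times the level of Ccl3 in controls and at 1.57 to 2.95 times after AVP, so the order of these 2 genes was the opposite in all 3 libraries of each group.

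**Figure D3:**
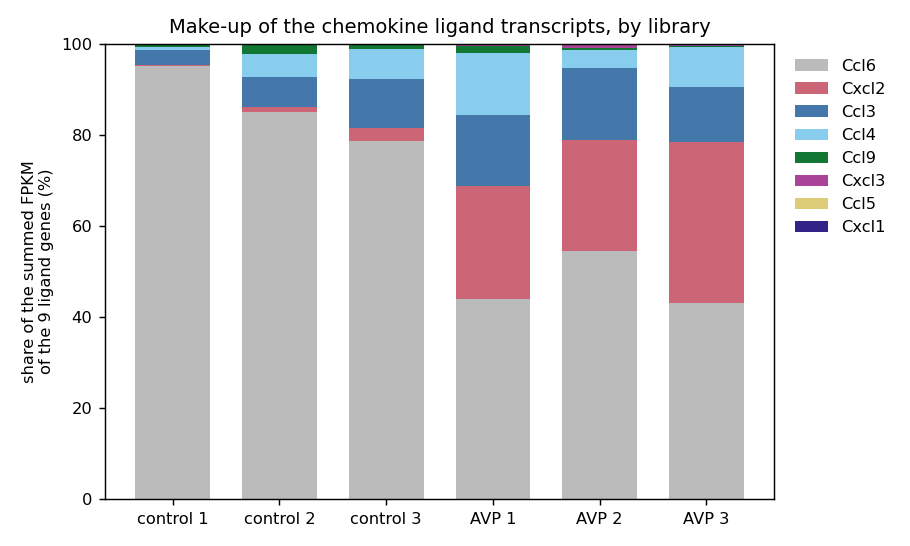
Share of the summed FPKM of the 9 ligand genes (vertical axis, percent) taken by each gene in each library; Cxcl16 is at 0 throughout and not drawn. Ccl6 takes 78.6% or more of the bar in controls and 54.4% or less after AVP, and Cxcl2 takes 24.6% or more after AVP.

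Pearson's r was taken over the 6 libraries on log2(FPKM + 1) after the library scaling used for testing. The r between Cxcl2 and Ccl3 was 0.975, that between Cxcl2 and Cxcl3 was 0.933, and that between Ccl3 and Ccl4 was 0.907. That between Cxcl2 and Ccl9 was 0.0698. These values are descriptions over 6 points that share the group difference. Control replicate 3 was the highest control for Cxcl2, Ccl3, Ccl4 and Ccl6. Among 4512 other genes with a mean of at least 5 FPKM, those most like Cxcl2 were Plk2, a stress-responsive kinase (r = 0.996), and Nfkbiz and Nfkbia, which encode IkB proteins (0.994 for both). Plk2 was at 0, 1.34 and 5.69 FPKM in controls and 27.5, 23.9 and 31.8 FPKM after AVP. Those most like Cxcl3 were Trem1, Tsc22d3 and Glipr2 (0.993, 0.992 and 0.989). Those most like Ccl3 were Babam2, Lcn2 and Emc7 (0.991, 0.989 and 0.987), and those most like Ccl4 were Crlf3, Atp6v0d1 and Tor1aip2 (0.989, 0.977 and 0.976). Ccl6 was most like Gabarap, Rab7 and Grap (0.986, 0.982 and 0.979), Ccl9 most like Acaa2, Sirpa and Ypel5 (0.987, 0.985 and 0.976), and Ccl5 most like Rab44, Dgkg and Prdx2 (0.964, 0.963 and 0.959). Rab44, Dgkg and Prdx2 were highest in AVP replicate 1, whose scaling factor was 0.892 beside 0.991 to 1.039 in the other libraries. Ccl5 varied little before scaling, and the part of scaling in its r was not tested. Other genes came close over these 6 points. Of the 4512 genes searched, 33 exceeded 0.95 with Cxcl2 and 10 with Ccl9, as did 4 of 4513 with Ccl5.

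The receptors of these ligands overlapped between the groups. Of 6 receptor genes 3 were tested, 0 passed and 0 separated the groups, with a median log2 difference of 0.24 beside -0.04 for all genes tested. Cxcr2, the receptor of CXCL1, CXCL2 and CXCL3, was at 168, 95.2 and 140 FPKM in controls and 113, 154 and 103 FPKM after AVP, a log2 difference of -0.03 (SE 0.29). Ccr1, the receptor of CCL3, CCL6 and CCL9, was at 138, 136 and 205 FPKM in controls and 144, 212 and 176 FPKM after AVP, a difference of 0.24 (SE 0.26). Cxcr1 ranged from 1.19 to 36.04 FPKM with overlapping groups.

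Among 17 other and atypical receptors, 7 were tested and 0 passed, and in 2 all AVP libraries lay above all controls (6.39% of all genes did so). Ccrl2, an atypical receptor that binds chemerin, was at 2.73, 4.75 and 25.6 FPKM in controls and 254, 283 and 189 FPKM after AVP. Cxcr4, which holds neutrophils in the bone marrow, was at 26.5, 35.9 and 27.3 FPKM in controls and 51.9, 59.7 and 63.1 FPKM after AVP, a log2 difference of 1.03 (SE 0.31, adjusted p = 0.352 by limma). Ccr7 was at 21.9 to 58.1 FPKM in controls and 14.6 to 40.56 FPKM after AVP, with overlapping groups.

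Of 28 other chemokine ligands, 22 were listed at 0 in all 6 libraries, and 3 were tested, with 0 past the threshold and a median log2 difference of 0.04. The most abundant were Pf4 and Ppbp, the platelet CXC chemokines that lie beside Cxcl3. Pf4 was at 122, 96.5 and 72.1 FPKM in controls and 60.5, 74.1 and 172 FPKM after AVP, and Ppbp at 77.1, 52.9 and 13.4 FPKM and at 0, 63.4 and 33.7 FPKM. Both overlapped between the groups, so within the chromosome 5 cluster the separation was seen in Cxcl2 and Cxcl3. Cxcl3 met the minimum through the AVP libraries alone, so it had to differ. Ccl2, a monocyte attractant, was at 35.4 FPKM in control replicate 2 and at 0 to 0.322 FPKM elsewhere.

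Regulators of chemokine transcription were set beside the ligands. All lists set beside the ligands were chosen with earlier results of these data known, which limits what their counts can show. Of 11 genes for NF-kB subunits and IkB proteins, all tested, 0 passed and 8 had a difference above 0 (median 0.90, beside -0.04 for all genes tested). In 4 of the 11, all AVP libraries lay above all controls (6.39% of all genes did so). These were Nfkbia, Nfkbiz and Nfkbid, which encode IkB proteins, and, named after its values were seen, the subunit Rel. Nfkbiz was at 42.5, 63.8 and 95 FPKM in controls and 206, 216 and 284 FPKM after AVP, and Nfkbia at 140, 153 and 382 FPKM and at 1018, 1074 and 1182 FPKM. The subunit Rela, also named after its values were seen, was at 17, 26.9 and 21.8 FPKM in controls and 12.3, 22.5 and 1.31 FPKM after AVP.

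Of 6 genes for mRNA decay and related control, 0 passed and 2 stood above all controls in all AVP libraries (6.39% of all genes did so). Their median log2 difference was 0.45. Zfp36, which encodes tristetraprolin, a protein that speeds the decay of AU-rich mRNAs including those of chemokines, was at 419, 331 and 632 FPKM in controls and 773, 1096 and 771 FPKM after AVP (log2 difference 1.05, SE 0.27). Tnfaip3, named after its values were seen, encodes A20, which restrains NF-kB signalling and is not itself an mRNA decay factor; it was at 1.37, 7.19 and 4.07 FPKM and at 55.3, 40.1 and 45.4 FPKM. Zfp36l2 and Zfp36l1 overlapped between the groups, with differences of -0.24 (SE 0.31) and 0.55 (SE 0.38).

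Of 8 proteases that trim or shed chemokines, 5 were tested, 0 passed, and in 2 all AVP libraries lay below all controls (7.63% of all genes did so). Mmp9, the gelatinase of neutrophil granules, was at 374, 230 and 231 FPKM in controls and 197, 100 and 143 FPKM after AVP, a log2 difference of -0.85 (SE 0.35, adjusted p = 0.565 by limma). Adam17, a sheddase named after its values were seen, was at 7.01 to 7.53 FPKM in controls and 2.74 to 4.82 FPKM after AVP. Mmp8 and Adam10, the sheddase of CXCL16, overlapped between the groups.

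Immediate early genes, which respond within minutes to stimulation and to the handling of cells, were set beside the ligands too. The list of them was also chosen with earlier results of these data known. Of 14 such genes, all tested, 0 passed, 14 had a difference above 0 (median 0.91, beside -0.04 for all genes tested), and in 10 all AVP libraries lay above all controls (6.39% of all genes did so). Jun, Egr1, Ier2 and Nr4a1, named after their values were seen, overlapped between the groups. The summed level of all 14 genes was 2260 to 3030 FPKM in controls and 3980 to 4460 FPKM after AVP. Dusp1, a MAP kinase phosphatase, was at 594, 451 and 589 FPKM in controls and 1010, 950 and 898 FPKM after AVP. The AP-1 genes Fos and Junb had smaller log2 differences of 0.50 (SE 0.22) and 0.55 (SE 0.25). The part of stimulation during sorting in the ligand levels was not tested.

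**Figure D4:**
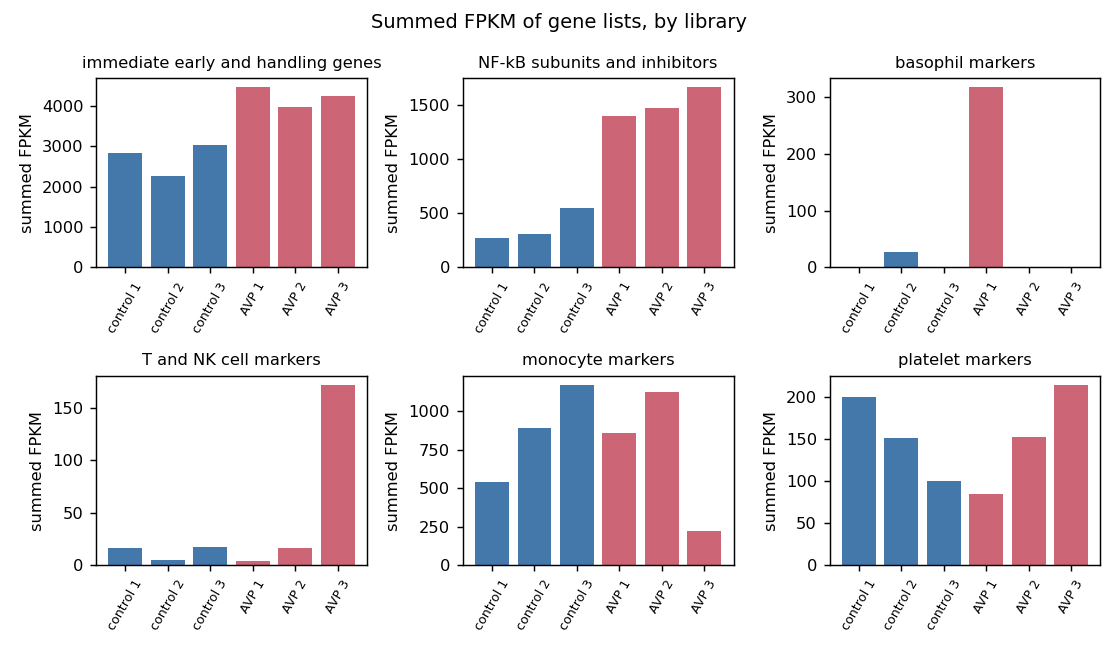
Summed FPKM (vertical axes, linear from 0) of the genes of 6 lists in each library, control in blue and AVP in red. The immediate early and NF-kB sums, the latter mostly Nfkbia, are higher in all 3 AVP libraries than in controls, basophil markers reach 317 FPKM in AVP replicate 1, and T and NK cell markers 172 FPKM in AVP replicate 3.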

How the data were processed

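RNA of sorted blood neutrophils was extracted with TRIZOL and sequenced from both ends of TruSeq fragments, per the labels' protocols. The submitters' processing notes list HISAT2 2.1 and featureCounts 1.6.4 among the tools, with the mm10 build; the step that made the values, the annotation and the strand setting are absent from the labels. The deposited values are taken to be FPKM by the authors: the files name no unit, and in short pseudogenes value times length piles up at a step from which the depth was estimated. That depth limits the precision of low values.

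Groups came from the sample titles. Testing took the 8523 genes that reached 1 FPKM in 3 or more libraries. Scaling used trimmed means of log ratios against a geometric mean reference, trimming 30% of ratios, and 5% of levels, per end, and log2(FPKM + 1) was fitted by limma 3.58.1 (R 4.3.3) using an intensity trend and no block. Fold changes on that scale understate the change of low genes; printed FPKM are unscaled. The 95% intervals come from limma. The procedure was tested on simulated data. Of the features, 94% matched a RefSeq symbol. Tables, exact permutation tests and alignments were made with Python 3.11.15, scipy 1.17.1 and Biopython 1.88. Exon overlaps and 50-base words were taken from GENCODE.

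The genes and lists were chosen with earlier results of these data known. Named genes are the 9 ligands, the 3 most abundant of each other list (or those past the threshold) and the 3 genes most correlated with each tested ligand, leaving out predicted genes, pseudogenes and receptor segments. The alternatives were other scalings, filters, pseudocounts and moderation, a replicate block, and leaving out each library. The values of 1 listed receptor gene are not reported here.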

Additional observations from a re-analysis of the deposited data

How the results depend on the processing

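Across 16 alternatives Cxcl2, Ccl3, Ccl4 and Ccl6 kept a difference above 0, as did Ccl5 in the 15 that tested it. Cxcl2 passed with a filter of 5 FPKM in 3 libraries (log2 difference 6.06, adjusted p = 0.046 by limma) and with a pseudocount of 5 (5.84, adjusted p = 0.0475), and its adjusted p ranged from 0.00599 to 0.609 over the alternatives. With each library left out in turn it ranged from 5.20 to 7.04 and passed without control replicate 3 alone. Cxcl3 met the minimum through the AVP libraries alone, so it had to differ and its p supports nothing. It was tested under 13 alternatives. It could not be tested without an AVP library, since 3 libraries were then no longer at 1 FPKM. Its adjusted p by limma was 0.046 with the 5 FPKM filter and 0.0483 with no intensity trend, and neither is read as a pass. The counts of genes given next for these settings include Cxcl3. The number of genes higher after AVP was 11 with the 5 FPKM filter, 3 with a pseudocount of 5, 1 with no intensity trend, and 0 to 4 with a library left out (4 without control replicate 3); 0 were lower under each of the 16. The cause was not tested, except that the stricter filter by construction tests fewer genes (5268). The difference of Ccl9 was -0.04 with no scaling, and ranged from -0.95 (without AVP replicate 1) to 1.21 (without AVP replicate 3) with a library left out. That of Ccl3 ranged from 1.98 (without control replicate 1) to 3.07 (without control replicate 3), and that of Ccl4 from 1.625 to 3.495 likewise. Without AVP replicate 1, Ccl4 had an unadjusted p of 0.0635. With the replicate number as a block, 0 genes were higher and 0 lower, and Cxcl2 had an adjusted p of 0.292. The labels do not say that numbers pair samples, the deviations of same-numbered samples correlated at 0.0205, -0.0129 and -0.0423, and not every sample correlated best with its own number.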

Other observations

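Among ligands outside the 9, Cxcl10, an interferon-induced CXC chemokine named after its values were seen, was listed at 0 in all 3 controls and in AVP replicate 1, and stood at 3.4 and 17.3 FPKM in AVP replicates 2 and 3. Xcl1, a chemokine of T and NK cells, was at 1.11 to 2.885 FPKM in controls and 1.54 to 2.69 FPKM after AVP.

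For Ccl5 the coefficient of variation over the 6 libraries was 6.59%, and 0 of the 2175 tested genes with a mean of 2 to 5 FPKM had a lower one; their median was 83.5%. The level of Ccl3 divided by that of Ccl4 was 5 in control replicate 1 and 4 in AVP replicate 2, while it was 1.26, 1.64, 1.15 and 1.34 in the other 4 libraries.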
